A study of Mus musculus with 2 samples.

Results

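The cells described here are the 186 epithelial cells of an untreated mouse adenoma organoid culture that carried the highest share of goblet cell transcripts. They were selected on their own expression, as the top 10% of 1865 epithelial cells by the summed unique molecular identifiers (UMIs, each standing for 1 captured transcript) of the 8 goblet genes Spink4, Agr2, Muc2, Fcgbp, Zg16, Clca1, Tff3 and Spdef over the cell's total. A barcode counted as an epithelial cell with at least 9810 UMIs, at most 20% mitochondrial UMIs and at least 5 UMIs of Epcam, an epithelial adhesion molecule. The other 1679 epithelial cells of the same library served for comparison. The whole series held 4996 cells within the mitochondrial limit. The organoids came from intestinal adenomas of 17-week-old C57BL/6 mice of the ApcMin/+ genotype, which carry 1 mutated copy of Apc, a brake on Wnt/β-catenin signalling. One culture was the control and the other received RSPO1-Fc, a fusion protein of the Wnt agonist R-spondin 1 (10 µg/ml in the treatment protocol, while another label gives the number in milligrams). Each was measured as 1 droplet library with 3′ counting, which leaves every difference unreplicated and untested. The labels do not say how many animals or adenomas each culture came from.

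Goblet cells are secretory cells of the intestinal epithelium that fill their granules with mucus. Muc2 is the gel-forming mucin of that mucus, Fcgbp, Zg16 and Clca1 are proteins secreted with it, and Tff3 is a trefoil peptide of the mucus layer. Agr2 is a disulfide isomerase of the endoplasmic reticulum that takes part in mucin folding, Spdef is a transcription factor of goblet cell maturation and Spink4 is a Kazal-type protease inhibitor. Paneth cells, the other granule-filled secretory cells of the small intestinal crypt, release lysozyme (Lyz1) and alpha-defensins, and like goblet cells they depend on the transcription factor Atoh1.

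The data went against the name goblet for most of these cells. Of the 186, 169 had 0 Muc2 UMIs, 2 had 1 and 15 had at least 2, and 162 owed more of their score to Agr2 than to any other gene. In 113 cells Agr2 was the only one of the 8 genes with a UMI, and in 150 cells it made up at least 90% of the score. The 15 cells with at least 2 Muc2 UMIs held 99.9% of the members' Muc2 UMIs, 97.8% of their Spink4 UMIs and 96.4% of their Tff3 UMIs, but 46.1% of their Agr2 UMIs. The members are therefore described as 2 sets, the 15 Muc2-bearing cells and the 169 cells without Muc2, of which the second is called the Muc2-less set. Agr2 led the score in 159 of the 169 Muc2-less cells, while Spink4 led in 6, Tff3 in 2 and Fcgbp in 2, and 1 of them had 0 Agr2 UMIs. The 2 cells with 1 Muc2 UMI are in neither set. Since all 8 genes chose the members, their values are a description and support no finding.

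The RefSeq promoters of Agr2 and Muc2 are shown because these genes define the 2 sets. They cover 250 bases before to 50 after the start of each gene on GRCm38.p6, and lie on the plus strand at chr12:35992675-35992974 for Agr2 and chr7:141690090-141690389 for Muc2. Capitals mark matches, on either strand, to TATAAA and to the E-box letters CAGCTG or CAGATG.
Agr2: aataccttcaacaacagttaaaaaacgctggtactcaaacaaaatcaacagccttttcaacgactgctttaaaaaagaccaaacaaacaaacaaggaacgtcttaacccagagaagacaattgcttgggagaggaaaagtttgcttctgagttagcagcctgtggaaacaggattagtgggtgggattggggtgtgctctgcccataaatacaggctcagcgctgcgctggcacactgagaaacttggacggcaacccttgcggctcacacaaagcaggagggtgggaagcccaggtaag
Muc2: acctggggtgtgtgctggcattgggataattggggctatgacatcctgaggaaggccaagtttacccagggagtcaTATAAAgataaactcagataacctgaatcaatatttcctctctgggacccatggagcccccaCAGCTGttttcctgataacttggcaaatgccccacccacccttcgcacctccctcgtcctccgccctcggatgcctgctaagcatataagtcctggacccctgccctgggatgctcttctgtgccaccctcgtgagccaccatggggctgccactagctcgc
In the Muc2 window CAGCTG began 112 bases and TATAAA 174 bases before the start, and the Agr2 window held none of the 3 strings. Of 32851 promoters of this length, 16.3% held CAGCTG, 17.2% CAGATG and 13.6% TATAAA, so such matches are common. Of the 8 genes, 4 were matched in the promoter table.

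The score ran without a gap through the limit, which was set as a share of cells and not at a break in the score. The lowest member had 3.1679 goblet-gene UMIs per 10000 UMIs and the highest non-member 3.1659, with 20 members and 27 other cells within 10% of the limit. The median was 5.4 in members and 0.397 in other cells, and 609 epithelial cells (32.7%) scored 0. The Muc2-bearing cells scored far above the rest, with a lowest value of 12, a median of 371 and a highest value of 1410, against a median of 5.09 and a highest value of 55.6 in the Muc2-less set. Only 2 of the other 1679 cells had 2 or more Muc2 UMIs.

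**Figure D1:**
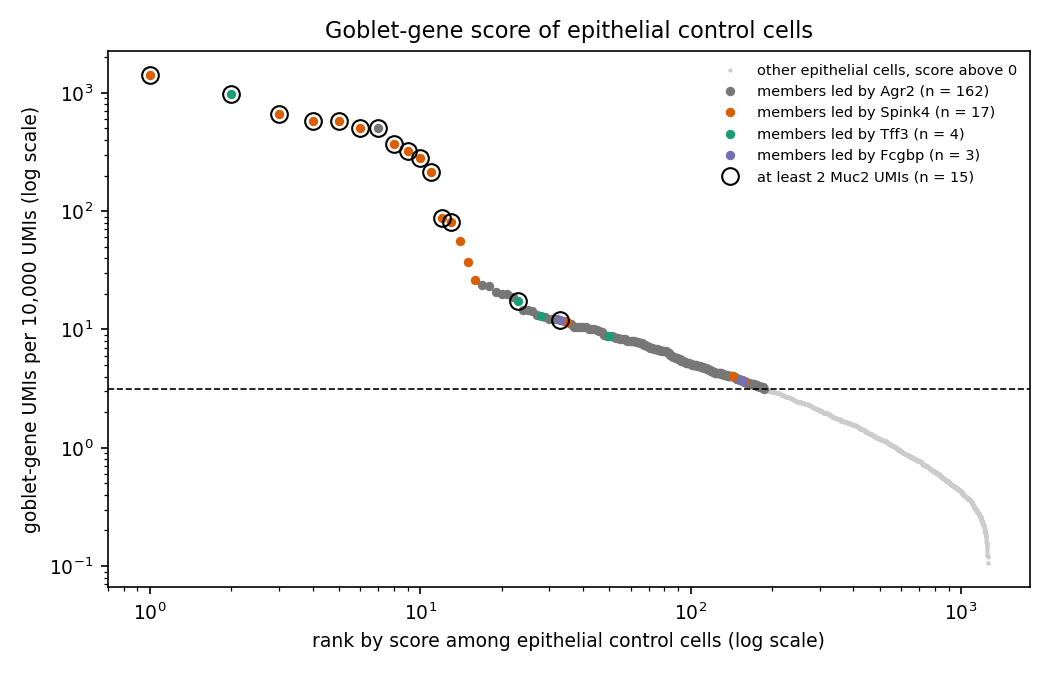
Goblet-gene UMIs per 10000 UMIs (log axis) against rank (log axis) for epithelial control cells with a score above 0. Colours give the gene with the most UMIs in each member, rings mark the 15 cells with at least 2 Muc2 UMIs and the dashed line is the limit; 13 of the ringed cells take ranks 1 to 13, and cells led by Agr2 fill most of the ranks after that.

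The members were sequenced more deeply than the other cells, with a median of 36516.5 against 27145 UMIs, and the mitochondrial share was alike (medians 6.19% and 6.21%). UMIs of ribosomal protein genes made up a median of 24.9% in members and 20% in other cells. At least 5 UMIs of 12 macrophage markers were found in 57 members (30.6%) and 287 other cells (17.1%), although the markers' summed level was 143.9 UMIs per 1000000 (CPM) in members and 213.2 in other cells. Endothelial, fibroblast, pericyte and lymphocyte markers each summed to at most 58.04 CPM in members. The 2% of control cells with the highest doublet scores included 6 members (3.23%) and 34 other epithelial cells (2.03%), and none of the 15 Muc2-bearing cells. The part of depth, of macrophage RNA and of doublets in the results below was not tested, except where a value without such cells is given.

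The 15 Muc2-bearing cells carried Muc2 at 3 to 358 UMIs a cell, with a median of 75. Spink4 ran from 2 to 3874 UMIs (median 818), Agr2 from 2 to 902 (median 267) and Tff3 from 10 to 944 (median 64), and each of these was present in 15 of 15 cells. Spdef was found in 13 of them at up to 18 UMIs. Fcgbp was found in 9 cells and its median was 1 UMI, while Zg16 and Clca1 came from 2 cells. The cell of rank 2 (13438 UMIs in all) had 251 Muc2, 225 Fcgbp, 38 Zg16, 204 Clca1 and 513 Tff3 UMIs and 0 of Lyz1, Itln1 and Mmp7. The cell of rank 33 (71879 UMIs) had 26 Muc2, 32 Fcgbp, 2 Zg16 and 6 Clca1 UMIs, with 0 of Lyz1 and Itln1 and 18 of Mmp7.

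Most of the other Muc2-bearing cells carried Paneth genes beside the goblet genes. Lyz1 reached at least 10 UMIs in 10 of the 15 cells, Mmp7, the protease that activates defensins, in 14, Itln1, an intelectin lectin, in 10, and the defensin Defa24 in 5. In the Muc2-less set, 0 of 169 cells had 10 Lyz1 or Defa24 UMIs, and in the other epithelial cells 1.73% and 0.119% did. Mmp7 was common in all groups, reaching 10 UMIs in 37.3% of the Muc2-less and 33.1% of the other cells, and Itln1 did so in 2.96% and 8.4%. Summed over cells, Lyz1 was at 8262 CPM in the Muc2-bearing cells and 25.28 CPM in other cells, a ratio of 326.8 (95% interval 308.8 to 346; intervals here and below are conditional Clopper-Pearson intervals and cover counting error only). Lyz1 was also found in 87.3% of the 189 cells of the library with at least 20 macrophage marker UMIs after thinning to 9000 UMIs a cell, but Defa24 and Itln1 were each found in 1.59% of them and Mmp7 in 4.76%. Reads of alpha-defensin genes can be assigned to the wrong copy because the copies are so alike, so the value of any 1 of them is uncertain. Defa24 came mostly from 2 cells with 3999 UMIs each. Of the 9 Paneth markers in the table, 8 were at least 2-fold higher and Mptx2 was 2.95-fold lower, on 7 UMIs. Only 4 of the 9 reached 20 CPM in the Muc2-less or the other cells, and the rest could not have come out lower. At the level of a cell, the summed Paneth markers ran from 74.4 to 182804 CPM with a median of 15821, against medians of 200 in the Muc2-less set and 274 in other cells.

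**Figure D2:**
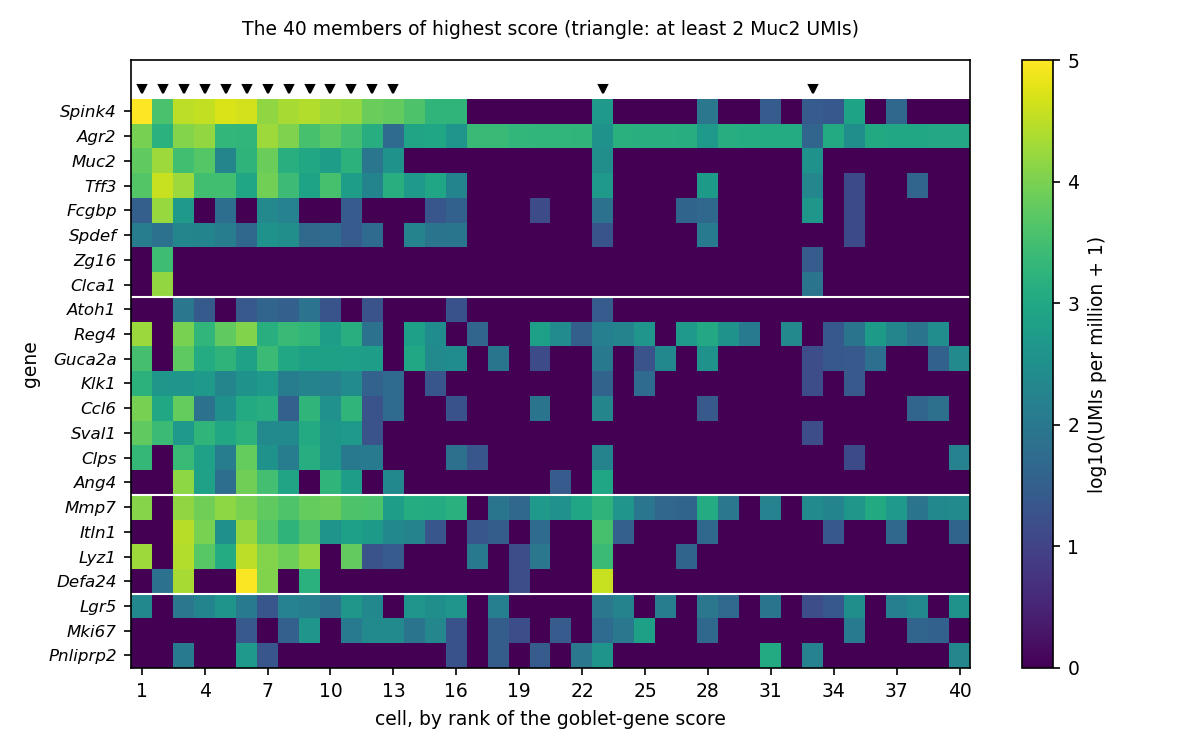
Levels of 23 genes (rows) in the 40 members of highest score (columns, by rank), as log10 of CPM plus 1. White lines part the 8 goblet genes of the score, other secretory genes, Paneth genes and 3 further genes, and triangles mark cells with at least 2 Muc2 UMIs; Zg16 and Clca1 show in the cells of rank 2 and 33, Paneth genes in most other marked cells, and Agr2 with little else from the 8 in most columns after rank 16.

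Genes counted as higher or lower below differed at least 2-fold and reached at least 20 CPM in either group. A gene that reached 20 CPM in 1 of the groups only could not be called lower in that group. In the Muc2-bearing cells 455 of 6924 genes were higher (6.57%) and 501 lower (7.24%) than in the other epithelial cells, with a median log2 ratio of -0.17 over all genes. Of 16 measured further goblet genes, 15 were higher. Only 5 of the 16 reached 20 CPM in the Muc2-less or the other cells, and the rest could not be called lower. Guca2a, the precursor of guanylin, was at 1105 against 8.531 CPM (129.6-fold, 115.9 to 145), the kallikrein Klk1 was 190.9-fold higher (147 to 250.1) and the lectin Reg4 153.4-fold (142.5 to 165.1). Ang4, an antimicrobial ribonuclease of Paneth and goblet cells, was 2616-fold higher (1946 to 3602), but was present in 10 of 15 cells with 47.4% of its UMIs from 1 cell. Retnlb, a goblet cell resistin-like molecule, had 36 UMIs in the 15 cells and 1 in all others. Outside the fixed lists, Sval1 was found in 13 cells (764.7 against 0.1194 CPM), the trypsin inhibitor Spink1 in 11 (682.7 against 0.4777 CPM) and the lipase cofactor Clps in 12 (851.8 against 0.6142 CPM). Spink1 reached 10 UMIs in only 3 of the 15 cells, with a median of 1 UMI and 40% of its UMIs from 1 cell.

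The machinery that builds mucin was higher in the Muc2-bearing cells. Of 24 measured mucin glycosylation genes, 20 were higher and 0 lower, with a median log2 ratio of 2.02 against -0.17 for all genes. Only 15 of the 24 reached 20 CPM in the Muc2-less or the other cells. The rest, Gcnt3 and Galnt12 among them, were measured through the Muc2-bearing cells alone and could not be called lower, which raises the count and the median. Gcnt3, which branches O-glycans, was 49-fold higher (34.99 to 68.19), Galnt12 and Galnt7, which start O-glycan chains, were 7.49-fold (5.709 to 9.669) and 6.83-fold higher (5.799 to 7.998), and Gmds, an enzyme of fucose supply, was 5.88-fold higher (5.223 to 6.604). The transmembrane mucin Muc13 stood at 639.2 against 93.61 CPM, 6.83-fold higher (6.218 to 7.485). In the endoplasmic reticulum, 14 of 22 folding genes were higher and 0 lower, among them the selenoprotein Selenom (35.5-fold, 31.83 to 39.58), the disulfide isomerase P4hb (3.02-fold, 2.793 to 3.251) and the chaperone Calr (2.60-fold, 2.448 to 2.748). Genes of secretory transport followed with 10 of 26 higher, while of 12 unfolded protein response genes 4 were higher, including Edem1, which takes part in the removal of misfolded proteins (4.47-fold, 3.524 to 5.606). None of the transport and unfolded protein genes measured was lower. At most 24 of these transport and 11 of these unfolded protein genes reached 20 CPM in the Muc2-less or the other cells. The rest could not be called lower.

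Among transcription factors of secretory cells, 4 of 13 were higher and 0 lower. Only 10 of the 13 reached 20 CPM in the Muc2-less or the other cells. Atoh1, Bhlha15 and Creb3l4 did so in the Muc2-bearing cells alone, so they could not be called lower. Atoh1 had 21 UMIs in 9 of the 15 cells and 2 UMIs in all 1679 others (26.9 against 0.03412 CPM). Bhlha15 (Mist1), a factor of secretory cell architecture, had 22 UMIs against 10 in the others, a ratio of 165.2 (75.06 to 390.7). Creb3l1 and Creb3l4, membrane-bound factors of the secretory pathway, were 5.93-fold (4.841 to 7.195) and 6.17-fold higher (4.394 to 8.461). Xbp1 at 1.76-fold, Klf4 at 1.57-fold and Foxa1 at 0.80 of the level in other cells did not reach 2-fold.

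Wnt targets were mostly below the level of the other epithelial cells in the Muc2-bearing cells: 14 of 18 had a ratio below 1, 5 were lower and 1 higher, with a median log2 ratio of -0.75. In the 6 cells of 20000 to 50000 UMIs, 11 of 18 were lower and 1 higher than in other cells of that depth, with a median of -2.14. Over all genes, that comparison of 6 cells had 1665 lower and 782 higher, with a median log2 ratio of -0.30. Nkd1, a feedback inhibitor within the cell, was at 311.3 against 872.3 CPM (2.80-fold lower), the secreted inhibitor Notum at 105 against 291.2 CPM (2.77-fold lower), and Lef1, a DNA-binding partner of β-catenin, at 26.9 against 79.11 CPM (2.94-fold lower). For Nkd1, Notum and Lef1, 39.9% to 47.6% of the UMIs came from 1 cell. Lgr5, the stem cell receptor for R-spondins, was at 155 against 81.11 CPM (ratio 1.91, 1.582 to 2.289). It had UMIs in 13 of 15 cells, with 39.7% of them from 1 cell. Ephb3, a receptor that places Paneth cells in the crypt, was 2.87-fold higher (2.21 to 3.657). In the Notch pathway, through which neighbouring cells hold back secretory fate, only 3 of 17 listed genes reached 20 CPM, too few to describe the pathway. The target Hes1 was 2.36-fold lower and the receptor Notch1 2.48-fold lower, while the ligand Dll4 was 3.30-fold higher on 18 UMIs (1.934 to 5.276).

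Defence genes differed in both directions in the Muc2-bearing cells. Of 11 measured, 9 were higher: the lectin Reg3g at 1047 against 39.79 CPM (26.3-fold, 24.26 to 28.5), Pigr, which carries antibodies to the lumen (14.4-fold, 13.2 to 15.6), and the oxidase Duox2 (14.7-fold, 11.55 to 18.49) came from many cells. Saa1, S100a8 and S100a9 were among the 9 but had 100%, 96.3% and 97.4% of their UMIs in 1 cell. At most 9 of the 11 measured genes reached 20 CPM in the Muc2-less or the other cells, and the rest could not be called lower. Lcn2, an iron-scavenging defence protein, was 5.23-fold lower at 119.1 against 622.9 CPM. Cd74, the MHC class II invariant chain, was 6.90-fold lower, the chemokine Cxcl14 had 1 UMI, and the cytoskeletal gene Vim was 5.56-fold lower. By cell, however, Cd74 had UMIs in 40% of the Muc2-bearing and 33% of the other cells, with up to 258 UMIs in an other cell. Cxcl14 had UMIs in only 17.2% of the other cells, at up to 279 a cell. It was also found in 39.7% of macrophage-marker cells after thinning. Of 12 enteroendocrine markers, 9 were at 0 in all 15 cells, Chga among them. The hormone gene Sct was higher at 51.24 against 3.992 CPM, with 82.5% of its UMIs from 1 cell, and the hormone gene Pyy was lower on 3 UMIs. The 12 markers summed to 58.92 CPM against 47.77 CPM in other cells.

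Cell cycle genes of the Muc2-bearing cells were not called in the S phase list (0 of 16, median log2 ratio -0.39) and 1 of 23 G2 and M phase genes was lower. This depended on which cells were compared: in the 6 cells of 20000 to 50000 UMIs, 8 of 14 S phase genes were lower and 1 higher than in the 889 other cells of that range, and 7 of 15 G2 and M phase genes were lower. Many genes outside these lists were also called there, with 1665 lower and 782 higher over all genes. Mki67, a proliferation marker, was at 94.79 against 92.51 CPM, with 40.5% of its UMIs from 1 of the 15 cells. All values of the Muc2-bearing set rest on 780667 UMIs from 15 cells.

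The 169 Muc2-less cells had another profile. Agr2 itself was at 624.8 CPM against 56.76 CPM in the other epithelial cells, and was found in 168 cells with a highest value of 146 UMIs. After thinning every cell to 9000 UMIs, it was found in 98.2% of the Muc2-less cells, 27% of the other epithelial cells and 1.06% of the 189 macrophage-marker cells, whose median depth was 14630 UMIs before thinning. Spink4, by the same measure, was found in 10.1% of the Muc2-less cells (5.97% to 15.6%), 5.3% of other cells and 6.35% of macrophage-marker cells. The intervals of the Muc2-less and of the other cells (4.28% to 6.48%) both included the level of the macrophage-marker cells. The part of background RNA in these Spink4 UMIs was not tested. Free RNA in droplets of 100 to 500 UMIs held 488.4 CPM of Spink4. Summed over the Muc2-less cells, Spink4 was at 51.39 against 6.227 CPM in other cells, and Tff3 at 14.12 against 0.8701 CPM. The top cell held 28.5% of the set's Spink4 UMIs and, for Tff3, 42.7%. In the cells of rank 14, 15 and 16, Spink4 had 48, 89 and 107 UMIs and Tff3 6, 44 and 10. A few Muc2-less cells thus carried goblet genes other than Agr2. No UMI of Muc2 (by construction), Zg16 or Clca1 was found in the set, and the latter pair had 7 and 2 UMIs in all the other epithelial cells.

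Genes that were higher or lower than in the other epithelial cells numbered 71 (1.06%) and 227 (3.38%) of 6707. Calls were so few over all genes that lists of this size would hold about none at that share. Accordingly, 0 of 15 mucin glycosylation genes, 0 of 22 folding genes, 0 of 11 unfolded protein response genes, 0 of 24 transport genes and 0 of 10 secretory transcription factors passed 2-fold in either direction. The mucin glycosylation genes had a median log2 ratio of 0.32 with 10 of 15 above 1, and the folding genes one of 0.05, against -0.06 for all genes. Atoh1 had 2 UMIs in 169 cells. Of 4 measured Paneth markers, 3 were lower, namely Lyz1 (5.482 against 25.28 CPM), Itln1 (41.8 against 86.19 CPM) and Mptx2 (3.426 against 26.48 CPM). Lyz1 and Mptx2 reached 20 CPM in the other cells alone, so they could not be called higher. Of 5 measured further goblet genes, 3 were higher: Reg4 at 6.65-fold (6.082 to 7.274), Guca2a at 3.13-fold (2.641 to 3.704) and Ern2, the goblet cell relative of the stress sensor Ire1, at 2.82-fold (2.431 to 3.267). Each of these 3 was below 20 CPM in the other cells. They were measured through the Muc2-less set alone and could not be called lower.

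The 10 highest and 10 lowest genes of the Muc2-less set were chosen after their values were seen, by the size rule used for all members. Reg4 led, at 122.8 against 18.46 CPM and in 60.4% against 19.3% of cells. Rgcc, a regulator of the cell cycle, was 5.68-fold higher (5.152 to 6.248) and Gkn3, a gastrokine found in stem cells, 4.98-fold higher (4.494 to 5.515). Ttr, the transthyretin carrier, was 3.55-fold higher and present in 84% against 36.4% of cells, and the pore-forming claudin Cldn2 was 2.35-fold higher and present in 87% against 44.2%. Gas6, a ligand of Axl-family receptors, was 2.49-fold higher, but was also found in 47.6% of macrophage-marker cells after thinning. Reg3b, Reg3g and Dmbt1 were 4.11-, 3.89- and 3.43-fold higher, with 29.1%, 46.1% and 30% of their UMIs from 1 cell.

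Wnt ligands and Sox11 marked the low end. Sox11, a transcription factor of progenitors, had 7 UMIs in 5 of the 169 cells against 3870 UMIs in 500 of the other 1679, a level 68.8-fold lower (33.37 to 171.3). The ligand Wnt6 was at 33.71 against 229.8 CPM (6.82-fold lower, 6.008 to 7.763) and Wnt10a at 20.42 against 133.4 CPM (6.53-fold lower, 5.554 to 7.733). Wnt6 was found in 38.5% of the set and 73.3% of other cells, although the set was the deeper one. The lipase-like gene Pnliprp2 was 6.45-fold lower (5.956 to 6.985), the chemokine Cxcl5 6.01-fold, the proline synthesis enzyme Pycr1 5.46-fold and the growth factor Gdf11 4.55-fold.

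**Figure D3:**
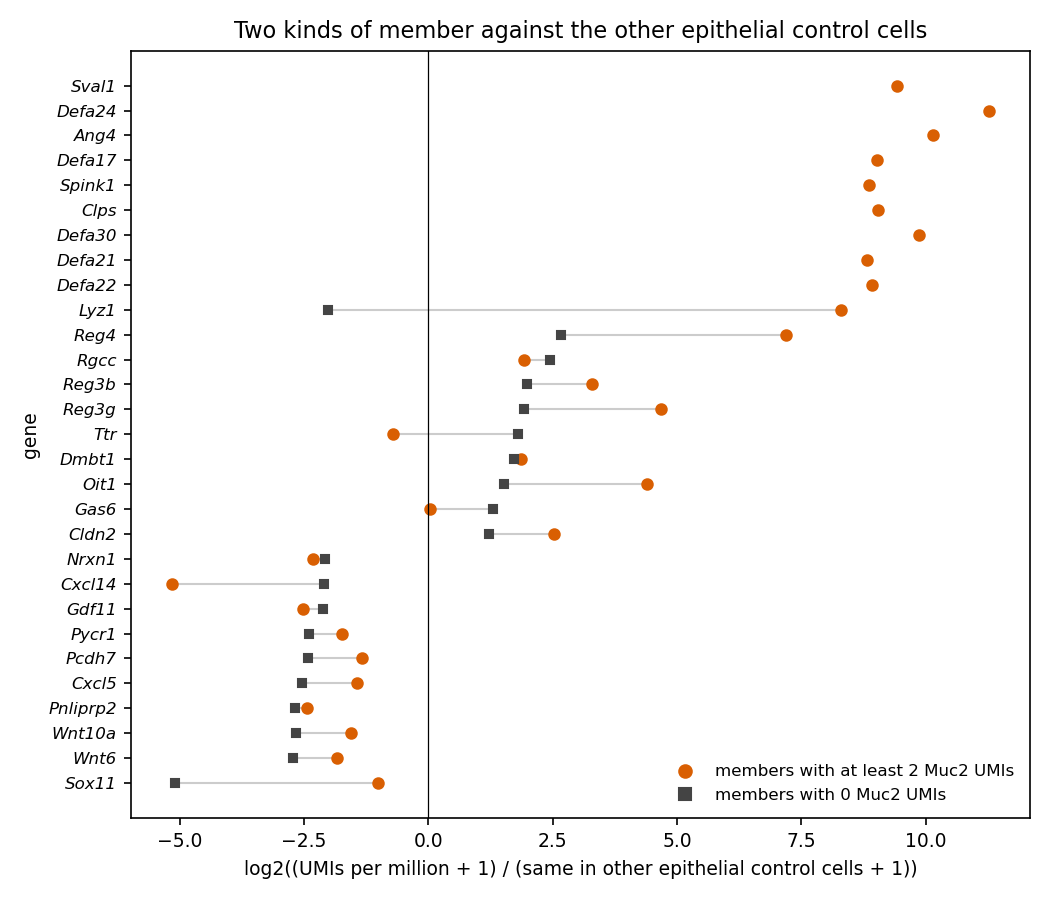
Log2 ratio, with 1 added to each CPM value, of the 15 Muc2-bearing cells (circles) and the 169 Muc2-less cells (squares) over the other 1679 epithelial control cells. Rows are the 10 genes highest over all members, then the highest and lowest genes of the Muc2-less set; a missing square means that the gene reached 20 CPM in neither the Muc2-less nor the other cells, and Gkn3 is not drawn because it reached 20 CPM in neither the Muc2-bearing nor the other cells. Lyz1 and Ttr lie on opposite sides of 0 in the 2 sets, Lyz1 above 0 and Ttr below 0 in the Muc2-bearing cells. The circles of the 10 lowest genes lie on the same side as the squares.

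Cell cycle genes all had ratios above 1 in the Muc2-less set. The 20 measured S phase genes had a median log2 ratio of 0.85, against -0.06 for all genes, and 4 were called, namely Mcm5 of the replicative helicase (2.07-fold), Chaf1b (2.21-fold), Rpa2 (2.13-fold) and Dtl (2.11-fold). All 24 measured G2 and M phase genes were above 1 (median 0.69), and the mitotic kinases Cdk1 and Aurkb were called at 2.09- and 2.04-fold. At most 16 of the 20 S phase and 23 of the 24 G2 and M phase genes reached 20 CPM in the other cells. The rest were measured through the Muc2-less set alone, so their ratios had to lie above 1. Mki67 was at 139.5 against 92.51 CPM and had UMIs in 49.1% against 28.1% of cells. At a matched depth of 20000 to 50000 UMIs, with medians of 29490 and 29243 UMIs, 21 of 21 S phase genes and 24 of 24 G2 and M phase genes were above 1 and 7 and 3 were called. At most 14 of these 21 and 15 of these 24 reached 20 CPM in the other cells of that depth, and the rest had to lie above 1. Over all genes at that depth, 85 were higher and 281 lower, with a median log2 ratio of -0.07.

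Fetal and regenerative epithelium genes, which intestinal cells express during repair, were lower in 5 of 9 cases and higher in none. Among them, Anxa1 was 2.71-fold lower, Ecm1 2.49-fold, Basp1 2.41-fold and Ly6a (Sca-1) 2.24-fold. Of 10 measured stem cell markers Gkn3 alone was called, and Lgr5 was at 104.4 against 81.11 CPM (ratio 1.29, 1.191 to 1.39). By cell, however, Lgr5 was found in 52.1% of the set and 54.3% of other cells, with medians of 19.6 and 27.1 CPM. Among 18 Wnt targets 13 were below 1, but Lef1 alone was called (2.05-fold lower), and Myc at 1.56 and Ccnd1 at 1.33 lay above 1. Lcn2 was 3.17-fold lower and Cd74 3.97-fold lower, with 58.5% of the latter's UMIs from 1 cell.

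Below the limit, the levels of several of these genes already differed by score. Wnt6 went from 343.7 CPM in the 609 cells of score 0 to 255.1 and 127.3 in the lower and upper 535 cells below the limit and to 33.71 in the Muc2-less set. Sox11 took the values 118.2, 65.65, 31.08 and 0.9593 CPM over the same steps. Ttr went the other way, through 18.71, 31, 92.52 and 180.6 CPM, as did Cldn2 with 30.06, 56.81, 127.2 and 179. In the Muc2-bearing cells Ttr was at 30.74 CPM. Sox11 was at 32.02 CPM there, but 24 of its 25 UMIs came from 1 cell, without which it was at 1.411 CPM.

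**Figure D4:**
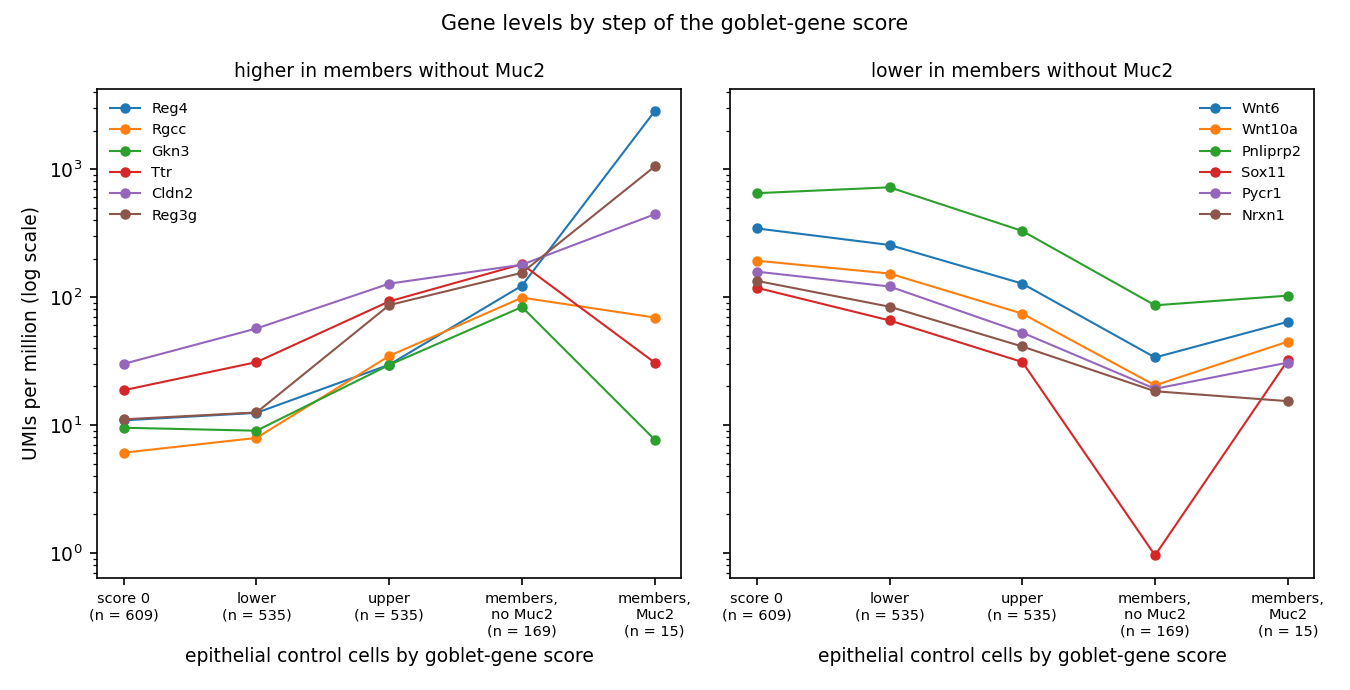
Level of 12 genes in CPM (log axis) in epithelial control cells by step of the goblet-gene score, from cells of score 0 through the lower and upper part of scores below the limit to the 2 sets of members. Each point is 1 sum over the cells of that step, without an error bar because there is 1 library; up to the Muc2-less set the left-hand genes climb and the right-hand genes descend, apart from Gkn3 and Pnliprp2 between the first 2 steps.

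Between the 2 sets, 523 of 6816 genes were higher in the Muc2-bearing cells (7.67%) and 394 lower (5.78%). Sval1 had 597 UMIs in the Muc2-bearing cells and 0 in the Muc2-less set, a level at least 1860-fold higher against a floor of 3 counts over the set, and the tryptase Tpsg1 was at least 140.2-fold higher. Gdf15, a stress-induced growth factor, was 15.1-fold lower (6.434 to 46.6), Gkn3 10.9-fold, Ttr 5.88-fold, the Myc relative Mycl 5.44-fold and the serine synthesis enzyme Phgdh 3.73-fold lower. All 20 measured S phase genes were below 1, with 13 called. At most 16 of these 20 reached 20 CPM in the Muc2-bearing cells. The rest were measured through the Muc2-less set alone and had to lie below 1.

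As 1 set, the 186 members showed mixtures of these profiles. Of 6713 genes, 90 were higher (1.34%) and 218 lower (3.25%) than in the other epithelial cells. The 10 highest were Sval1, Defa24, Ang4, Defa17, Spink1, Clps, Defa30, Defa21, Defa22 and Lyz1, all genes with a median of 0 UMIs over the members. The 10 lowest were Sox11, Pnliprp2, Wnt6, Wnt10a, Cxcl5, Pcdh7, Pycr1, Cxcl14, Snhg11 and Gdf11. The lows depended on Agr2 being in the score. With a score that left it out, 39 genes were lower, 3 of them shared with the 218, and Wnt6, Wnt10a and Sox11 had log2 ratios of 0.78, 0.81 and 0.89.

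The limit of the control culture was then applied to the RSPO1-Fc culture. There, 326 of 2729 epithelial cells (11.9%, exact binomial interval 10.8% to 13.2%) reached it, against 186 of 1865 (9.97%, 8.65% to 11.4%) in the control. The cells that reached it were led by other genes: Tff3 led in 193 (59.2%), Agr2 in 95 (29.1%) and Fcgbp in 33 (10.1%), where Agr2 led in 87.1% of the control cells. Without Tff3 in the score, 4.14% of RSPO1-Fc cells reached the limit set the same way in the control. Tff3 was at 157.8 CPM in RSPO1-Fc epithelial cells and 43.61 CPM in control ones, and at 236.8 and 169.6 CPM in droplets of 100 to 500 UMIs.

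Cells with at least 2 Muc2 UMIs made up 3 of 2729 (0.11%, 0.0227% to 0.321%) in the RSPO1-Fc library and 17 of 1865 (0.912%, 0.532% to 1.46%) in the control. Those 3 cells had 7, 4 and 2 Muc2 UMIs, with 1059, 178 and 2 Tff3 UMIs and 1808, 5082 and 0 Defa24 UMIs in the same order. The 2 cells with the most Tff3 thus carried defensin transcripts as well. Muc2 stood at 0.4412 CPM against 25.31 CPM over all epithelial cells. With every cell thinned to 5000 UMIs, where the control limit was 4 per 10000, 16.9% of RSPO1-Fc and 13.9% of control cells reached it. The control file lists 31053 genes and the RSPO1-Fc file 27998 genes, and the lists of possible barcodes differ in length, so a difference in chemistry or processing cannot be told apart from RSPO1-Fc.

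**Figure D5:**
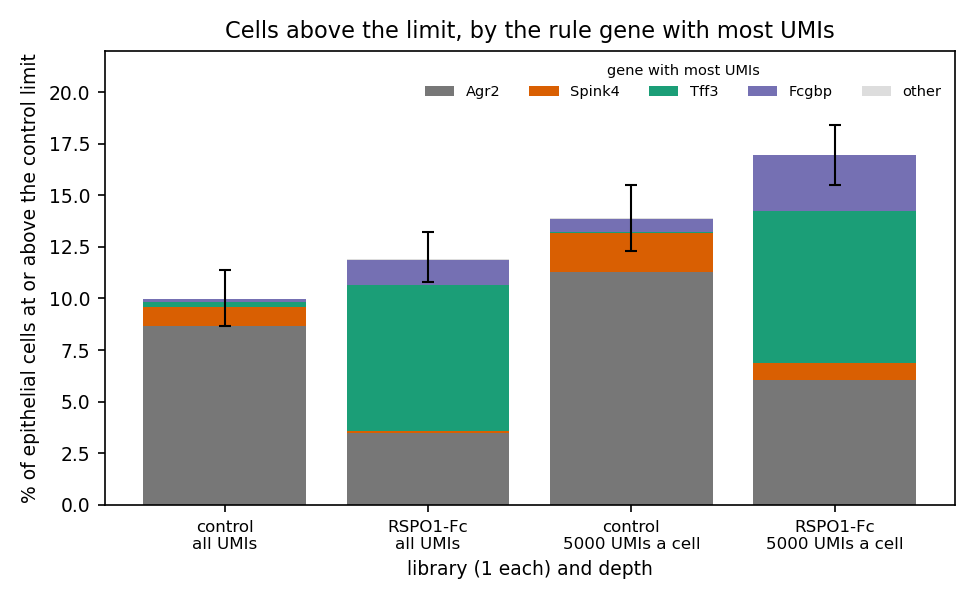
Share of epithelial cells at or above the control limit in the control and RSPO1-Fc libraries, with all UMIs and with each cell thinned to 5000 UMIs, split by the goblet gene with the most UMIs. Error bars are 95% exact binomial intervals for counting error; Agr2 (grey) fills most of the control bars and Tff3 (green) the largest part of the RSPO1-Fc bars.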

How the data were processed

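The files hold unfiltered, whole-number UMI counts, deposited by the authors and made from 10x 3′ libraries aligned to mm10 per the labels' protocols. Cell Ranger 2.1.1 and Seurat 3.1.1 are named in the submitters' processing notes, while the control matrix names software 3.1.0 per the file headers. Control UMIs totalled 91675581 and RSPO1-Fc UMIs 89437327. Barcodes of at least 9810 (control) and 5960 (RSPO1-Fc) UMIs were kept, 2269 and 2767, of which 18 and 22 exceeded 20% mitochondrial UMIs and 386 control cells had under 5 Epcam UMIs. No called barcode was shared. Doublet scores came from scrublet (scanpy 1.11.5), and doublets were kept in the main comparison; its own threshold marked 3 of 2251 cells, so the highest 45 were left out as an alternative. UMIs were summed over cells and compared as CPM, with a pseudocount of 1 CPM for log2 values, in Python 3.11.15. Code was tested on simulated data. With 1 library a group no p-value is given, since cells do not replicate a culture. Named genes are the 8 score genes, Atoh1, Lgr5, Mki67 and Epcam, the 10 highest and 10 lowest ratios at 50 CPM or more, the 8 highest and lowest between the sets, and up to 4 genes per list; further list genes were named after their values were seen, and 1 gene chosen by the rule is not reported here. The members and the 23 gene lists were chosen with earlier results of these data known. Coordinates are from GRCm38.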

Additional observations from a re-analysis of the deposited data

How the results depend on the processing

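No paired analysis was possible because each group is 1 library, and for the same reason no library could be left out. The Muc2-bearing set holds 15 cells, which limits its precision. Of 1515 gene ratios over 15 settings (101 genes), 43 ratios of called genes changed sign, 971 stayed within their counting interval and 501 lay outside it, and the cause of the changes below was not tested. The 90 higher and 218 lower genes of all members became 159 higher with a mean of per-cell CPM, 168 higher after thinning to 9000 UMIs, 142 higher without cells of 5 or more macrophage marker UMIs, 229 higher and 609 lower with no filter on low values, 39 lower with the score without Agr2 and 8 lower with equal weight per gene. The 455 higher and 501 lower genes of the Muc2-bearing cells became 848 lower with a mean of per-cell CPM, 997 and 1425 after thinning, 1104 and 2023 with no filter, 782 and 1665 in cells of 20000 to 50000 UMIs and 849 lower without cells of 5 or more macrophage marker UMIs; with a trimmed mean of M values the split was 555 to 360. The 71 higher and 227 lower genes of the Muc2-less cells became 128 higher with a mean of per-cell CPM, 135 after thinning, 109 without cells of 5 or more macrophage marker UMIs, and 172 and 649 with no filter. All settings for the 2 sets, and those on the depth range and macrophage markers, were chosen after seeing the data. The RSPO1-Fc share of 11.9% became 16.9% after thinning to 5000 UMIs, 4.14% without Tff3 and 9.99% with at least 20 Epcam UMIs.

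Log2 ratios of all members turned with the score without Agr2 to 0.89 for Sox11, 0.78 for Wnt6, 0.81 for Wnt10a, 0.48 for Cxcl5, 0.73 for Pcdh7, 0.30 for Pycr1, 1.26 for Cxcl14, 0.73 for Snhg11, -0.23 for Rpa2, -0.37 for Chaf1b, 0.73 for Cdkn2b, 0.51 for Anxa1, 0.40 for Ecm1, 0.44 for Basp1, 0.67 for Lcn2 and 0.43 for Cd74. With equal weight per gene they turned to 0.17 for Sox11, 0.19 for Wnt6, 0.19 for Wnt10a, 0.27 for Cxcl5, 0.22 for Pcdh7, 0.66 for Cxcl14, 0.02 for Snhg11, 0.24 for Cdkn2b, 0.32 for Anxa1, 0.12 for Ecm1, 0.01 for Basp1, 0.36 for Lcn2 and 0.05 for Cd74. With the Muc2-less cells alone they turned to -0.16 for Sval1, -0.87 for Defa24, -0.19 for Ang4, -0.22 for Defa17, -1.14 for Defa30, -1.79 for Defa21, -1.92 for Defa22, -2.02 for Lyz1, -0.85 for Muc2, -0.71 for Fcgbp, -0.05 for Clca1 and -0.41 for Ccl6. In cells of 20000 to 50000 UMIs Fcgbp turned to -0.06.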
